A study of Mus musculus with 8 samples.

Results

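Fibroblast growth factors (FGFs) were followed in ribosome-associated RNA of PV+ interneurons through 10 genes: Fgf1, Fgf2, Fgf9, Fgf10, Fgf11, Fgf12, Fgf13, Fgf14, Fgf18 and Fgf23. They were taken by gene name, 10 of the 45706 genes in the count and TPM tables, and they were selected on earlier results of the same CNO against vehicle contrast, so their difference between the groups is given as a description, with no test. All 8 samples came from mice of the genotype PvalbFlp/+;Neurod6Cre/+, aged P42 to P70, whose somatosensory cortex had received at P1 an AAV that encodes the HA-tagged ribosomal protein RPL10a together with the myc-tagged activating designer receptor hM3Dq. Its expression was driven by the hSyn promoter, turned on by Flp in Pvalb-expressing cells and turned off by Cre in Neurod6-expressing pyramidal cells. For the CNO group (4 samples) mice were given clozapine N-oxide, the ligand of hM3Dq, at 1 mg per kg in 5 injections over about 48 h, and for the vehicle group (4 samples) they were given vehicle on the same schedule. Each sample pooled the cortex of 4 brains, and both groups carried the virus, so there was no uninfected group. The ages given here are those of the sample labels. The paper's methods give a slightly narrower age range for the pulldown and a slightly wider one for the injection.

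FGFs fall into 3 kinds by how they act. The intracellular FGFs (Fgf11, Fgf12, Fgf13 and Fgf14) are not secreted; they stay inside the neuron and bind the tail of voltage-gated sodium channels, whose inactivation they tune. Paracrine FGFs (here Fgf1, Fgf2, Fgf9, Fgf10 and Fgf18) leave the cell, are held by heparan sulfate and activate FGF receptors on nearby cells, whereas Fgf23 is an endocrine FGF, known as a bone hormone that lowers phosphate and vitamin D through receptors paired with Klotho.

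Promoter sequence was examined for 9 of the 10 genes, all except Fgf1, in 15 entries (RefSeq, GRCm38.p6). Each entry was searched from 250 bases before to 50 bases after the start. Printed below are the 250 bases before the start, 5′ to 3′ on the gene's strand. They belong to Fgf23, the 1 gene whose groups did not overlap, and to Fgf9, the most abundant secreted FGF. They also belong to the most upstream (distal) and most downstream (proximal) starts of Fgf12, the most abundant of all. Of all 17495 genes tested, 1.63% were lower with CNO without overlap and 0.789% higher. Nothing is read from the overlap here, because the 10 genes were chosen on this contrast. Capitals mark the match to a searched motif: TGACG, the core of the cAMP response element, in Fgf23 and Fgf9; the MEF2 motif in the distal Fgf12 entry; and TGANTCA, the AP-1 motif, in the proximal one.
Fgf23, chr6:127072652-127072901, plus strand: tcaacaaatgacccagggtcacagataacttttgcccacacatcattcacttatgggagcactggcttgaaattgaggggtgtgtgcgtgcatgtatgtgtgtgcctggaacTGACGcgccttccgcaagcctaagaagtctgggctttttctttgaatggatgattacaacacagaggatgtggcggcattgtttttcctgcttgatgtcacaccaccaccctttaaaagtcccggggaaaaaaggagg
Fgf9, chr14:58072436-58072685, plus strand: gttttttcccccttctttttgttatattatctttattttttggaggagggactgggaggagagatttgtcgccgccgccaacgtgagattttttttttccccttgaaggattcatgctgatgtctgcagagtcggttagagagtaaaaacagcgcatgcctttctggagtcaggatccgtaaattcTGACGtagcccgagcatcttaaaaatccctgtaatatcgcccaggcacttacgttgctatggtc
Fgf12 distal, chr16:28753244-28753493, minus strand: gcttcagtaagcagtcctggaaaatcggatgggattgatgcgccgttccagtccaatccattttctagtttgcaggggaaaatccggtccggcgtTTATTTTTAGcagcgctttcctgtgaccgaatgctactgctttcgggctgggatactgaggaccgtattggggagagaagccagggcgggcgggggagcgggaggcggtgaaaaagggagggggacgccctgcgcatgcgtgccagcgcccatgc
Fgf12 proximal, chr16:28446076-28446325, minus strand: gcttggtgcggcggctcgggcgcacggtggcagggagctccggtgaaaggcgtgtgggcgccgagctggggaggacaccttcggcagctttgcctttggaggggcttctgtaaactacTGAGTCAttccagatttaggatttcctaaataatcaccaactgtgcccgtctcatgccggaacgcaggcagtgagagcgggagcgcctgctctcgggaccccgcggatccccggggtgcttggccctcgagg

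On both strands, the TGACG core began at position -138 of the Fgf23 sequence and at -64 of the Fgf9 sequence, and the same letters were found in 20.8% of 32851 promoters of this length. The MEF2 match at -155 in the distal Fgf12 entry was of a kind held by 3.19% of promoters, and the AP-1 match at -132 in the proximal entry of a kind held by 7.81%. The full element TGACGTCA (1.79% of promoters, and overlapping its own TGACG core) and the CArG box of serum response factor (1.63%) were found in none of the 15 entries. Fgf13 had a MEF2 match at -152 in 1 entry and an AP-1 match at -156 with a TATAAA at 38 in another, Fgf2 had TGACG at -140 and -6, another Fgf12 entry had it at -145 and 10, and the entries of Fgf10, Fgf11, Fgf14 and Fgf18 held none of the searched motifs. A match is a description of letters in this window; the gene-level files do not separate the 4 coding starts of Fgf12 or the 5 of Fgf13, so which start was in use was not measured.

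The libraries held between 44064161 and 49413273 counts each. Fos, an immediate early gene used to check activation, lay between 32.2 and 69.5 CPM (counts scaled to the normalized library size) with CNO and between 11.3 and 15.8 CPM with vehicle. Of 17495 genes tested with edgeR's quasi-likelihood test, 0 (0%) met all criteria for a call (adjusted p under 0.05, over 1.5-fold and a mean above 1 TPM), whereas 716 (4.09%) had an unadjusted p under 0.05; robust dispersions with a likelihood ratio test called 12 genes and DESeq2 called 10. The 8 PV interneuron markers were all detected, but vehicle replicate 1 stood apart: their summed level was 1127 TPM there and 2392 to 3752 TPM in the other 7 samples, with Pvalb itself at 300.1 TPM against 820 to 1160 TPM, while the 8 pyramidal markers summed to 979 TPM against 634 to 873 TPM. The markers of other interneurons (591 to 798 TPM summed), astrocytes (180.3 to 265 TPM), oligodendrocytes (502 to 929 TPM), microglia (37.3 to 69.99 TPM) and vascular cells (31.7 to 83.0 TPM) were also all above 0, so transcripts of other cell types were present. In such bulk samples, fewer cells of a type and less RNA per cell cannot be told apart.

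Intracellular FGFs led the order of the FGF genes, although the secreted Fgf9 lay above the intracellular Fgf14 and Fgf11. On the TPM scale, which corrects for gene length and library size, over all 8 samples, Fgf12 led with a mean of 175 TPM (90.8 to 245), above 94.8% of the genes tested. It was followed by Fgf13 at 88.8 TPM, Fgf9 at 57.2 TPM, Fgf14 at 32.1 TPM, Fgf11 at 18.1 TPM, Fgf18 at 15.8 TPM, Fgf1 at 7.04 TPM, Fgf10 at 3.07 TPM, Fgf23 at 1.31 TPM and Fgf2 at 0.745 TPM. Neighbours in this order were separated without overlap of their sample ranges except for 3 pairs: Fgf12 lay above Fgf13 in 8 of 8 samples although the ranges overlapped, Fgf11 above Fgf18 in 7 of 8, and Fgf23 above Fgf2 in 7 of 8. All 10 genes passed the filter on low counts, and 9 had a mean above 1 TPM. Fgf23 was among these 9 through the vehicle samples, with a mean of 1.69 TPM there against 0.927 TPM with CNO. Together the 10 genes made up 94.7% to 96.9% of the TPM of all 22 FGF genes, and the 4 intracellular FGFs alone 73.0% to 77.8%.

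**Figure D1:**
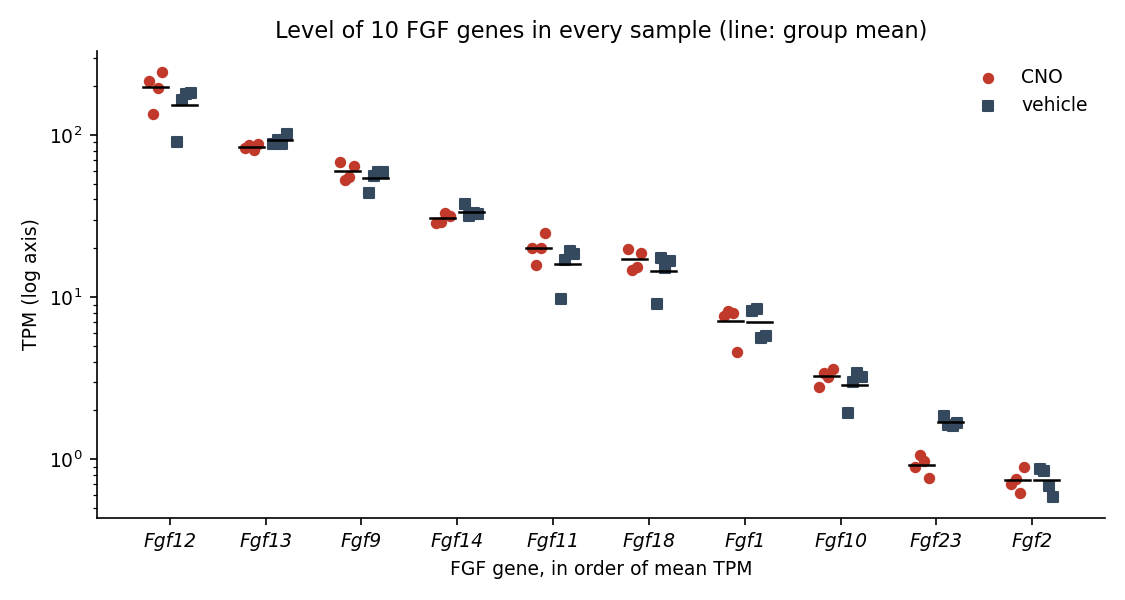
TPM of each FGF gene (log axis, genes in order of mean TPM) in the 4 CNO samples (circles) and the 4 vehicle samples (squares), with a line at each group's mean. Fgf12 sits at the top with a wide spread, from 90.8 TPM in vehicle replicate 1 to 245 TPM in a CNO sample, whereas for Fgf23, near 1 TPM, all 4 vehicle samples sit above all 4 CNO samples.

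Fgf12 (chr16:28160098-28753068, minus strand, GRCm38), which spans 593 kb and encodes a tuner of sodium channel inactivation, measured 296, 169.9, 269 and 348 CPM in CNO replicates 1 to 4 and 112, 213, 243 and 233 CPM in vehicle replicates 1 to 4. The groups overlapped: 3 of 4 CNO samples were above every vehicle sample, CNO replicate 2 was below 3 vehicle samples, and the lowest value was that of vehicle replicate 1. The means were 271 ± 74.9 and 200.4 ± 60.5 CPM (SD, n = 4 each), a log2 difference of 0.44 (SE 0.26). Without vehicle replicate 1 it was 0.23 (SE 0.19).

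Fgf11 (chr11:69796068-69801857, minus strand), its less abundant relative, had the same lowest and highest samples. It measured 27.0, 19.5, 27.3 and 34.5 CPM with CNO and 11.7, 21.7, 25.5 and 23.4 CPM with vehicle, with vehicle replicate 1 lowest and CNO replicate 4 highest. The log2 difference was 0.40 (SE 0.23), and 0.20 (SE 0.15) without vehicle replicate 1. The ratio of Fgf11 to Fgf12 in TPM stayed between 0.0934 and 0.118 over the 8 samples.

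Fgf13 (chrX:59062145-59568071, minus strand), which binds sodium channels and microtubules, varied little. It measured 75.1, 74.2, 75.0 and 79.8 CPM with CNO and 79.0, 85.1, 78.6 and 90.5 CPM with vehicle, so 3 of 4 CNO samples lay below every vehicle sample and the highest CNO sample lay above 2 of them. Means were 76.0 ± 2.56 and 83.3 ± 5.64 CPM (SD, n = 4 each), a log2 difference of -0.13 (SE 0.085). Fgf14 (chr14:123977907-124677127, minus strand), the gene of a hereditary ataxia and also a sodium channel partner, measured 46.5, 43.8, 53.9 and 53.5 CPM with CNO and 55.2, 49.1, 53.2 and 49.6 CPM with vehicle. The groups overlapped, although 2 CNO samples lay below all vehicle samples, at a log2 difference of -0.07 (SE 0.096). Fgf14 shares 5.26% of its exonic bases with the antisense gene Gm28932, whose reads cannot be told apart where counting does not use strand.

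These unequal spreads shifted the balance among the intracellular FGFs from sample to sample. The TPM ratio of Fgf12 to Fgf13 was 2.57, 1.55, 2.41 and 2.77 with CNO and 1.04, 1.74, 2.03 and 1.77 with vehicle. Fgf12 made up 61.9%, 50.5%, 59.3% and 62.8% of intracellular FGF TPM with CNO, against 40.2%, 53.4%, 56.0% and 54.2% with vehicle. In both measures 3 CNO samples lay above all vehicle samples and CNO replicate 2 lay among them, below 3 of the 4.

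Of the secreted FGFs, Fgf9 (chr14:58070547-58112720, plus strand), made by neurons and known as glia-activating factor, was the most abundant. It measured 53.1, 38.7, 44.4 and 53.7 CPM with CNO and 30.7, 41.5, 43.4 and 43.1 CPM with vehicle. Again 3 CNO samples lay above all vehicle samples, CNO replicate 2 lay below 3 of them, and vehicle replicate 1 was lowest, so that the log2 difference of 0.26 (SE 0.14) became 0.15 (SE 0.11) without that library. Fgf18 (chr11:33117430-33147400, minus strand) is a member of the FGF8 group with roles in cortex and skeleton. It measured 8.48, 5.90, 6.64 and 8.23 CPM with CNO and 3.42, 7.15, 6.36 and 6.62 CPM with vehicle. Its groups overlapped, and its log2 difference of 0.31 (SE 0.22) was 0.12 (SE 0.15) without vehicle replicate 1.

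Fgf10 (chr13:118669791-118792115, plus strand), a ligand of the epithelial form of FGFR2, measured 5.21, 5.92, 6.08 and 7.03 CPM with CNO and 3.24, 5.30, 6.31 and 5.69 CPM with vehicle. The overlap was wide, and the log2 difference of 0.24 (SE 0.20) was 0.07 (SE 0.15) without vehicle replicate 1. Fgf1, acidic FGF, which binds every FGF receptor, measured 13.9, 13.1, 14.4 and 8.14 CPM with CNO and 12.5, 13.1, 9.49 and 9.87 CPM with vehicle. Its lowest value was that of CNO replicate 4, and its log2 difference was 0.14 (SE 0.18). Fgf2 (chr3:37348346-37410108, plus strand), basic FGF, was the scarcest in mean TPM, which corrects for gene length. It measured 1.95, 1.92, 1.71 and 2.48 CPM with CNO and 2.15, 2.22, 1.87 and 1.53 CPM with vehicle. Its counts, 76 to 118 a library, were not the lowest, as those of Fgf23 ran from 45 to 94. The log2 difference of Fgf2 was 0.06 (SE 0.20) and took the opposite sign under 5 of 18 alternative settings; 13.2% of its exonic bases also overlap exons of Nudt6 or Gm43439, so its reads may include theirs.

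The genes that were low in vehicle replicate 1 followed the marker content of the samples. A marker index, the mean log2 CPM of the PV markers minus that of the pyramidal markers, was 1.86, 1.08, 1.63 and 2.26 in CNO replicates 1 to 4 and -0.10, 1.32, 1.64 and 1.5 in vehicle replicates 1 to 4. Over the 8 samples, which share their normalization with the index, log2 CPM of Fgf11 correlated with it at r = 0.99 (rho = 0.93), Fgf12 at r = 0.99 (rho = 0.98), Fgf9 at r = 0.96 (rho = 0.98) and Fgf18 at r = 0.95 (rho = 0.76), although among vehicle replicates 2 to 4 Fgf18 was lower where the index was higher. Without the samples farthest from the median of the index, vehicle replicate 1 and CNO replicate 4, r over the remaining 6 was 0.95, 0.98, 0.91 and 0.69 in that order. A correlation as high as that of Fgf11 was reached by 0.166% of the genes tested, that of Fgf12 by 1.13%, that of Fgf9 by 5.26% and that of Fgf18 by 7.80%. Fgf10 gave r = 0.89 over 8 samples but -0.12 over the 6, so its relation rested on those samples.

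The other 5 genes did not follow the index in this way. The correlation was 0.0025 for Fgf13, -0.12 for Fgf14, -0.0096 for Fgf2, -0.38 for Fgf1 and -0.59 for Fgf23. In that order, rho over all 8 samples was 0.02, 0, 0.10, -0.21 and -0.67. Over the 6 samples r was -0.11, 0.48, -0.23, -0.046 and -0.14. With the index as a covariate in the fit over all genes, the log2 difference between CNO and vehicle was 0.01 (SE 0.080) for Fgf12, 0.03 (SE 0.075) for Fgf11, 0.06 (SE 0.072) for Fgf9, 0.01 (SE 0.14) for Fgf18 and 0.02 (SE 0.15) for Fgf10. For Fgf13 it was -0.17 (SE 0.069), for Fgf1 0.29 (SE 0.18) and for Fgf23 -0.74 (SE 0.19). The markers were measured after treatment, and the index ran from 1.08 to 2.26 with CNO and from -0.10 to 1.64 with vehicle. A fit with the index therefore cannot tell marker content from an effect of CNO on the markers, and neither was tested.

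**Figure D2:**
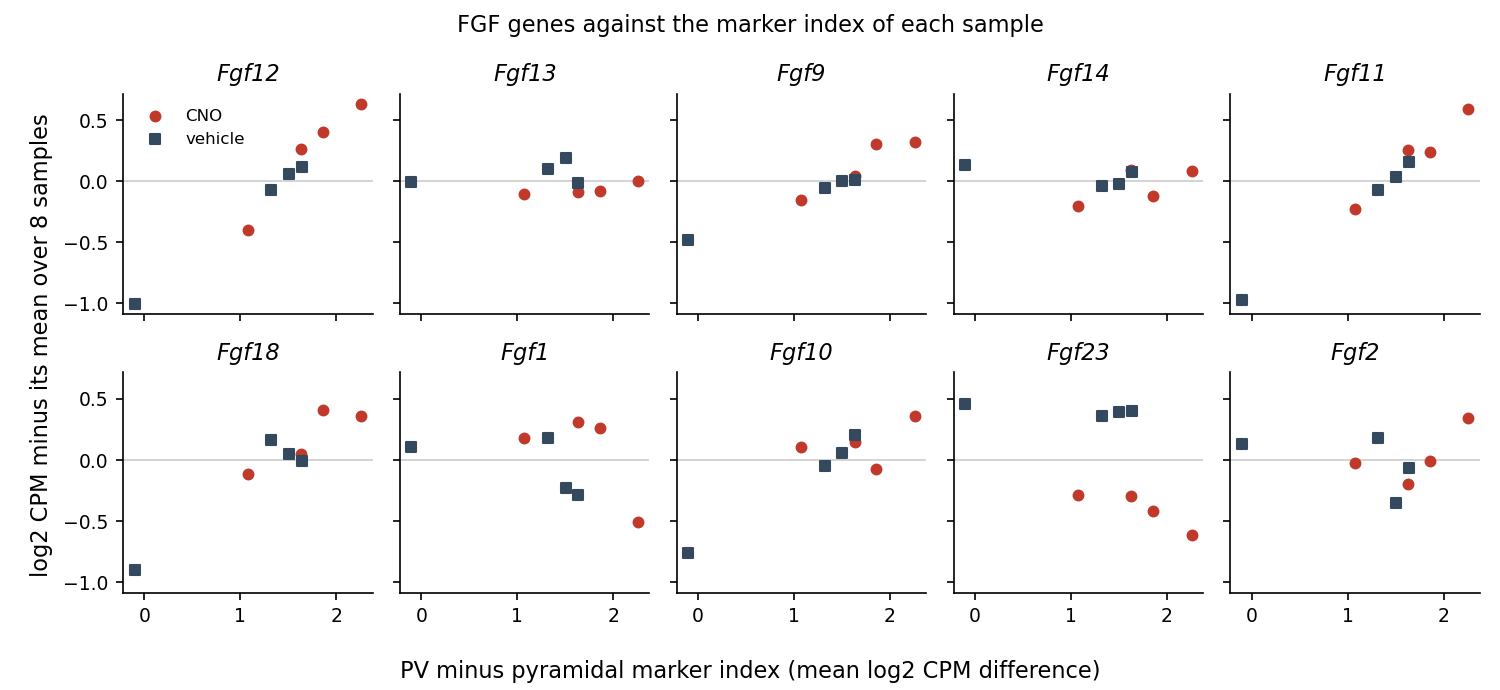
Each panel plots, for 1 FGF gene, log2 CPM minus its mean over the 8 samples (vertical) against the PV minus pyramidal marker index of the sample (horizontal), with CNO samples as circles and vehicle samples as squares. Fgf12, Fgf11 and Fgf9 are highest at the high end of the index and lowest in vehicle replicate 1, alone at the left (-0.10). Fgf18 is lowest there too but has no climb among the other 3 vehicle samples. Fgf23 forms 2 bands, vehicle above CNO, although no CNO sample has an index below 1.08 and no vehicle sample one above 1.64.

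Fgf23 (chr6:127072902-127081408, plus strand) was lower with CNO in every sample. Its counts were 51, 56, 55 and 45 with CNO and 89, 87, 92 and 94 with vehicle, or 1.08, 1.18, 1.18 and 0.947 against 1.99, 1.86, 1.91 and 1.90 CPM. No CNO sample reached the lowest vehicle sample, and vehicle replicate 1, so low in Fgf12 and Fgf9, had the highest Fgf23 value. The group means were 1.10 ± 0.11 and 1.91 ± 0.056 CPM (SD, n = 4 each), a log2 difference of -0.80 (SE 0.18) and a fold of 0.574. It was the only one of the 10 genes past 1.5-fold and the only one without overlap of the groups; among all 17495 genes tested 285 (1.63%) were lower with CNO without overlap and 138 (0.789%) higher, a background from which nothing is read here because the gene was chosen on this contrast. At or below its log2 difference lay 0.840% of the genes tested.

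Few reads stand behind these values. The 95% exact Poisson intervals of the single libraries, which cover counting error only, ran from 0.690 to 1.54 CPM over the CNO samples and from 1.49 to 2.45 CPM over the vehicle samples, so that intervals of the groups overlapped at their edge while the points did not. The variance of the counts between replicates was 0.53 times that expected from counting alone with CNO and 0.0738 times with vehicle, so the replicate SD understates the counting error. The log2 difference was -0.79 (SE 0.21) without vehicle replicate 1 and between -0.84 and -0.74 whichever single library was left out. Fgf23 is listed with 1 transcript, shares 0.112% of its 31-base words with other genes and overlaps no other gene. Its upstream neighbour Fgf6, 44.7 kb away with no gene between, had 0 or 1 count in every library.

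**Figure D3:**
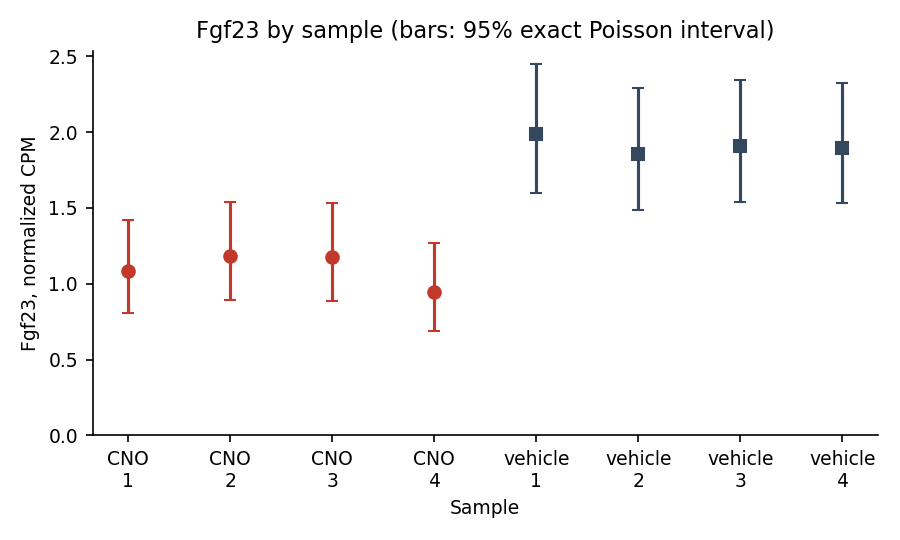
Normalized CPM of Fgf23 (vertical, from 0) in each of the 8 samples (horizontal), CNO as circles and vehicle as squares, with 95% exact Poisson intervals of the counts as bars. The 4 CNO points lie between 0.947 and 1.18 CPM and the 4 vehicle points between 1.86 and 1.99 CPM.

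Over the 10 genes, 7 were higher and 3 lower with CNO, the sign of Fgf2 depending on the setting, with a median log2 difference of 0.19 against 0.0014 for all genes tested; the members' median was 0.11 without vehicle replicate 1 and 0.02 with the marker index as a covariate. The largest positive difference was that of Fgf12 (0.44) and the largest negative that of Fgf23 (-0.80).

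**Figure D4:**
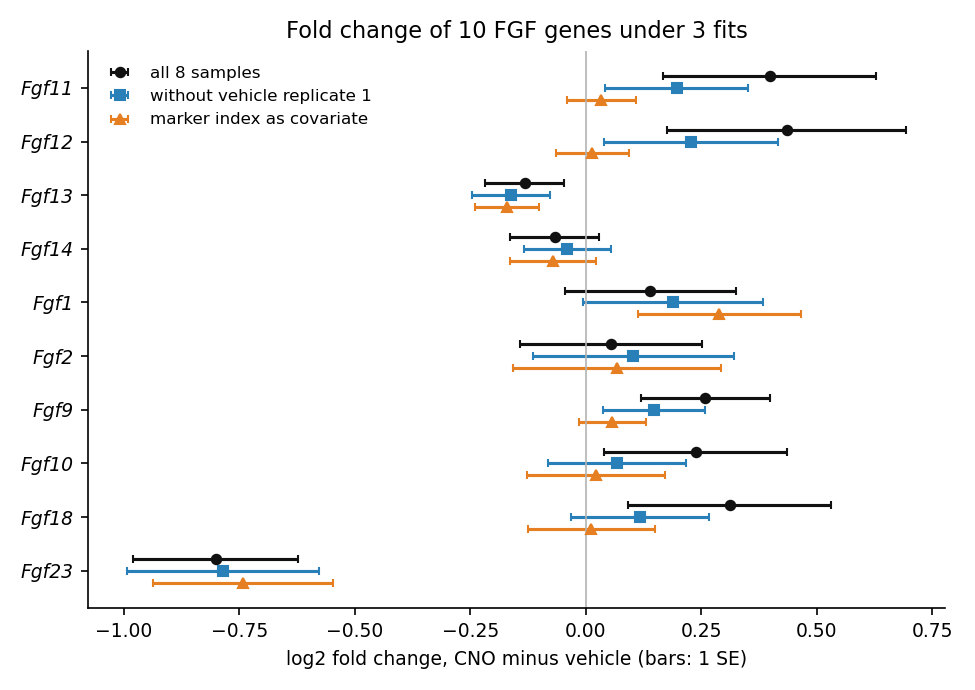
Log2 fold change of each FGF gene, CNO minus vehicle (horizontal, bars 1 SE), in the fit to all 8 samples (circles), without vehicle replicate 1 (squares) and with the marker index as a covariate (triangles). Fgf11, Fgf12, Fgf9, Fgf10 and Fgf18 move towards 0 across the 3 fits, Fgf12 from 0.44 to 0.23 and 0.01, whereas Fgf23 stays at -0.80, -0.79 and -0.74.

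Genes with the most similar profile to Fgf23 over the 8 samples, by Pearson's r of log2 CPM among 15172 genes above 1 TPM, were Ctbs (r = 0.96), Brinp1 (0.96), Olfml3 (0.95), Zfp174 (0.94) and Dab1 (0.94). All 5 were lower with CNO without overlap, as were 1.63% of all genes tested, by log2 differences between -0.47 (Olfml3) and -0.18 (Dab1), smaller than that of Fgf23. Because Fgf23 itself separated the groups, genes picked for likeness to it were prone to separate them too. Nothing is read from this count. The nearest profiles to Fgf12 were those of Bzw1, Map4, Cab39, Dnajc5 and Acp1, with r between 0.9958 and 0.9982, and none of these separated the groups. These likenesses are a description, with no test.

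The rest of the FGF pathway was read from lists of 90 genes, of which 75 were tested. None was called; 6 of them (8.0%) had an unadjusted p under 0.05 in edgeR's quasi-likelihood test, against 4.09% of all genes, with a lowest adjusted p of 0.817, and robust dispersions or DESeq2 also called 0. Of the 75 genes 32 were higher and 43 lower with CNO, at a median log2 difference of -0.04. Because the lists were chosen with earlier results of these data known, these shares are a description only.

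Among the 12 further ligands only 5 had enough counts to test, and none had an unadjusted p under 0.05. Fgf22, a presynaptic organizer, averaged 7.06 TPM and Fgf5 6.60 TPM, with log2 differences of -0.16 (SE 0.29) and 0.24 (SE 0.15). Fgf20, a relative of Fgf9, had 0.55, 0.51, 0.54 and 0.42 CPM with CNO and 0.20, 0.49, 0.19 and 0 CPM with vehicle, a log2 difference of 1.2 (SE 0.63) that rested on at most 26 counts a library. Fgf3 and Fgf7 averaged 0.310 and 0.263 TPM, with differences of -0.52 (SE 0.36) and 0.24 (SE 0.49).

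Receptors were led by Fgfr3 at 36.0 TPM, a receptor also typical of astrocytes, followed by Fgfr2 at 21.7 TPM, Fgfr1 at 11.4 TPM and the decoy-like Fgfrl1 at 6.10 TPM. Kl, the Klotho co-receptor that Fgf23 uses, averaged 0.640 TPM, and Fgfr4 and Klb had too few counts to test. The log2 differences were 0.15 (SE 0.11) for Fgfr1, -0.13 (SE 0.096) for Fgfr2, -0.21 (SE 0.12) for Fgfr3, -0.15 (SE 0.18) for Fgfrl1 and -0.10 (SE 0.23) for Kl, and none had an unadjusted p under 0.05. For Fgfr3 the highest value, 75.4 CPM, was again that of vehicle replicate 1, against 47.7 to 59.8 CPM elsewhere.

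Genes of heparan sulfate and FGF release held 5 of the 6 low p-values, all lower with CNO. They were Sulf1 (a sulfatase that trims heparan sulfate), Hs2st1 (a sulfotransferase), Ext1 (a polymerase of the chain), Ndst4 (an N-sulfotransferase) and Gpc4 (a glypican core protein), at log2 differences of -0.62 (SE 0.22), -0.28 (SE 0.11), -0.27 (SE 0.10), -1.04 (SE 0.45) and -0.40 (SE 0.17). None passed adjustment over all genes in edgeR's quasi-likelihood test, where each had an adjusted p = 0.817. Sulf1 measured 2.90, 5.54, 6.27 and 4.19 CPM with CNO and 7.80, 6.13, 6.48 and 8.58 CPM with vehicle, so that only CNO replicate 3 reached into the vehicle range. Ext1 measured 36.71, 41.43, 43.62 and 35.15 CPM against 52.39, 44.86, 43.75 and 47.82 CPM, so the groups were separated only narrowly. Ndst4, with the largest difference of the list, averaged only 0.483 TPM on 12 to 137 counts a library, and its groups overlapped. Ext1, Gpc4, Ext2 and Sdc2, 4 of the 25 genes (16%), were lower without overlap, against 1.63% of all genes tested. Ext2 and Sdc2 are named because of that value. The list was chosen with earlier results of these data known, so nothing is read from this share. In this list of 25 genes 7 were higher and 18 lower, at a median of -0.14, and the count at a p under 0.05 was 3 without vehicle replicate 1, 4 with the marker index as a covariate, and 1 without CNO replicate 1 or without CNO replicate 4. Sdc3 (40.8 TPM) and Sulf2 (39.5 TPM), the most abundant of the list, had log2 differences of 0.13 (SE 0.12) and 0.02 (SE 0.11).

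Inside the cell, Spry4, an inhibitor of receptor tyrosine kinase signalling that FGF induces, was the 1 gene higher with an unadjusted p under 0.05. It measured 26.4, 18.95, 24.5 and 30.2 CPM with CNO and 7.58, 17.3, 20.5 and 15.5 CPM with vehicle, a log2 difference of 0.71 (SE 0.255, adjusted p = 0.817 in edgeR) in which CNO replicate 2 lay below vehicle replicate 3. The lowest value was that of vehicle replicate 1, the library low in PV markers, and the highest that of CNO replicate 4, the highest in the marker index; the difference was 0.49 (SE 0.15) without vehicle replicate 1 and 0.34 (SE 0.099) with the index as a covariate. Of the 11 targets and feedback genes tested 7 were higher and 4 lower; Spred1 (64.1 TPM) and Etv5 (43.9 TPM) had log2 differences of 0.06 (SE 0.12) and 0.0078 (SE 0.085). Etv1, an ETS factor that FGF signalling induces, was the only 1 of the 11 genes (9.1%) without overlap. Of all genes tested, 1.63% were lower with CNO without overlap. Etv1 lay at 29.7 to 31.7 CPM with CNO and 32.8 to 34.95 CPM with vehicle. Its log2 difference was -0.15 (SE 0.077), opposite in sign to that of Spry4, and it is named because of that value. The list was chosen with earlier results of these data known, so nothing is read from this share. None of 13 adaptors had an unadjusted p under 0.05, with Grb2 (107 TPM) at 0.12 (SE 0.11), Plcg1 (59.9 TPM) at -0.06 (SE 0.12) and Gab1 at -0.28 (SE 0.16).

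Among 9 partners of the intracellular FGFs none had an unadjusted p under 0.05. The scaffold Mapk8ip2, which Fgf12 binds, averaged 146 TPM and differed by 0.12 (SE 0.13). Of 12 genes of the Fgf23 axis 7 were tested and none had an unadjusted p under 0.05: Galnt3, which glycosylates Fgf23 and protects it from cleavage, was at 3.11 TPM with a difference of -0.29 (SE 0.24; -0.66 with limma on log2(TPM + 1)), Fam20c, the kinase that opposes it, at 31.4 TPM with -0.05 (SE 0.083), and the phosphate transporter Slc20a1 at 141 TPM with -0.04 (SE 0.12).

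**Figure D5:**
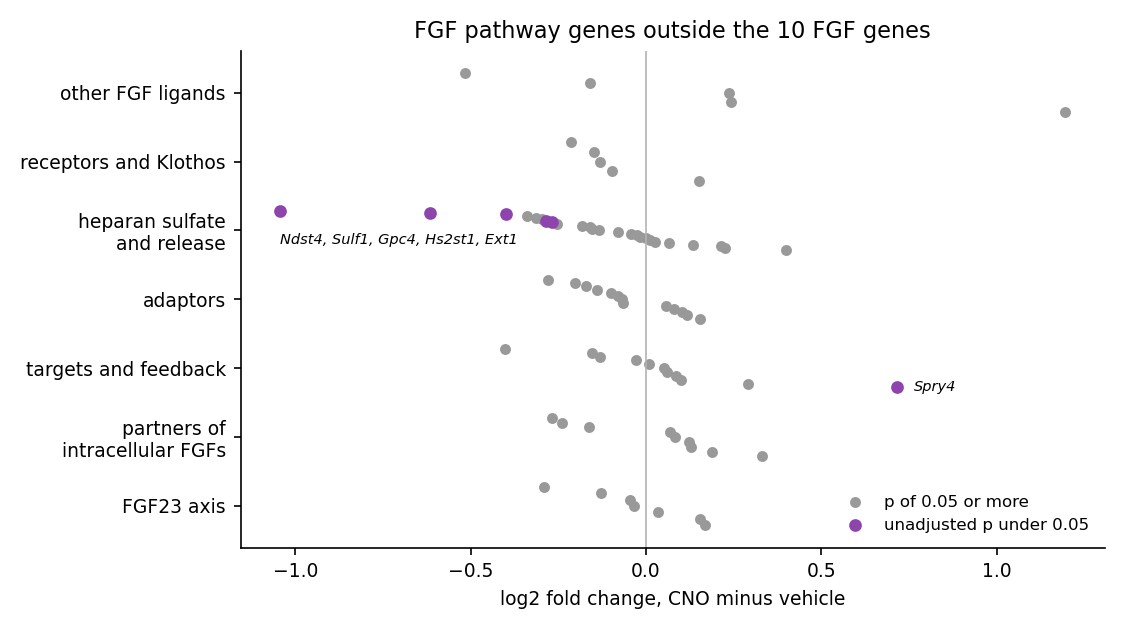
Log2 fold change, CNO minus vehicle (horizontal), of the 75 tested pathway genes by list (vertical), with the 6 genes at an unadjusted p under 0.05 in purple. The 5 purple points of the heparan sulfate and release list, from -1.04 to -0.27, lie to the left of 0, and Spry4 alone (0.71) to the right.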

How the data were processed

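RNA bound to HA-tagged ribosomes was sequenced from 8 pools of 4 brains, 4 per group, grouped by the treatment label. The authors used Trim Galore for trimming, STAR for alignment to GRCm38/mm10 and Salmon for quantification; tool versions and strand use were not given in the sources used here. The deposited files hold estimated counts per gene (17.0% of values are not whole) and TPM, which the authors scaled to gene length and to a fixed sum per sample; another file pairs gene identifiers with names. Counts were rounded, a gene was kept when no more than 3 samples fell below 10 counts (17495 genes), and edgeR 4.0.16 in R 4.3.3 gave TMM-normalized CPM and the quasi-likelihood test of CNO against vehicle over all genes, with Benjamini-Hochberg adjustment. The SE is the size of the log2 difference divided by the square root of F. Log2 CPM used a prior count of 2. The p-values set the group difference against the variation between pools, as estimated by a model that draws on all genes.

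The 10 members and all lists were chosen with earlier results of these data known. All FGF members, all tested further ligands, all receptors and, per other list, the 2 most abundant genes, that of largest log2 change and those at an unadjusted p under 0.05 are named, except 1 gene that is not reported here; Ext2, Sdc2 and Etv1 were named after their values were seen. Of the 90 listed pathway genes 89 had a row. Positions are from GENCODE M21. The fit was tested on simulated data first. Alternatives covered DESeq2 1.42.0, limma 3.58.1 on log2(TPM + 1) and log2(TPM + 0.1), other scalings, no filter, covariates and leaving out each library.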

Additional observations from a re-analysis of the deposited data

Results flagged for a closer look

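In groups of 4, a sample counted as far from the rest when its gap to the nearest other sample exceeded Dixon's 95% critical share of the group's range, which chance gives in about 1 of 20 groups; 76 groups were checked and 7 held such a sample, where 3.8 would be met by chance. Of these, 4 were vehicle replicate 1 as the lowest vehicle sample: Fgf12 (gap over range 0.83, 6.80 log2 CPM against 7.74 to 7.93), Fgf9 (0.871, 4.94 against 5.38 to 5.44), Fgf18 (0.84, 1.79 against 2.68 to 2.85) and the share of Fgf12 in intracellular FGF TPM (0.833, 40.2% against 53.4% to 56.0%). The low PV markers of that library move with these values; their part in them was not tested.

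Fgf1 was low in CNO replicate 4 (0.838, 3.03 log2 CPM against 3.72 to 3.85), a library that held the highest values of Fgf12 and Fgf11. Ndst4 was high in vehicle replicate 4 (0.895, 1.49 against 0.68 to 0.76), and Spred1 was low in CNO replicate 2 (0.885, 7.10 against 7.51 to 7.56).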

How the results depend on the processing

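The count of genes called, 0 in the quasi-likelihood test, became 12 with robust dispersions and a likelihood ratio test, 10 with DESeq2, 4 without the filter on low counts and 3 with replicates 1 and 2 against 3 and 4 as a batch term, and ran from 0 to 2 when single libraries were left out (2 without CNO replicate 1); the cause was not tested. The count of FGF pathway genes called was 0 under every alternative run. Of 180 alternative values of the FGF members' log2 differences, 179 moved by less than 1 within-group SD. For Fgf12 that SD was 0.44 log2 CPM with CNO and 0.53 with vehicle, so a shift of nearly the whole difference counted as unmoved. With the marker index as a covariate Fgf12 went from 0.44 to 0.01, Fgf11 from 0.40 to 0.03 and Fgf18 from 0.31 to 0.01. Fgf9 went from 0.26 to 0.06 and Fgf10 from 0.24 to 0.02. Of the 180 values 5 took the opposite sign, all of them Fgf2: with library size scaling, in both limma fits and without CNO or vehicle replicate 4. With a replicate block Fgf12 gave 0.45 and Fgf23 -0.81, and 0 genes were called; same-numbered samples deviated together at r = 0.03, -0.03, 0.16 and 0.24, and not every sample correlated best with its own number, so the samples were not treated as pairs. Of 486 such values of the named pathway genes, none of which was called, 28 took the opposite sign. Fgf23 ranged from -0.85 with library size scaling to -0.48 on log2(TPM + 1), a scale that understates the change of low genes. Its 45 to 94 counts limit its precision, and both groups of Fgf2 and Fgf20 are too thinly counted for small differences to be detectable.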
